A study of Mus musculus with 6 samples.

Results

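In a section of a wild-type mouse fetal liver at E14.5, 1209 of 117329 cells carried at least 3 counts of the uroplakin genes Upk1b and Upk3b together, a share of 1.03% (95% exact interval, 0.973 to 1.09). These Upk-positive cells were chosen by that rule alone, from the deposited counts per cell. They were sought as the mesothelium of the liver. Across all 6 sections of the series, 521938 cells were deposited.

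Gene expression was measured in place by Xenium, an imaging method in which probes bound to transcripts are decoded by rounds of fluorescence and each transcript is given to a cell outlined around its nucleus. The sections were 5 µm thick and cut from fixed, paraffin-embedded tissue of wild-type mice, C57BL/6 in the study's methods. Fixation was in formalin, but for adult femurs the methods describe paraformaldehyde, frozen sectioning and separation of marrow from bone before embedding. There was 1 section per condition: fetal liver at E14.5 and E13.5, bone marrow at P8 and 89 weeks, and an untreated adult spleen. A further section came from a spleen after phenylhydrazine (PHZ), an agent that lyses red cells, given at 40 mg/kg in repeated injections over 2 days. No mouse carried a mutation or transgene. With 1 section of each kind there was no replicate and no test between conditions, and cells of a section are not replicates of one another. Intervals below are exact 95% intervals that cover counting error only.

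The mesothelium is the single layer of flat cells that lines the body cavities and wraps the organs in them. On the fetal liver it lies over a thin layer of mesenchyme beneath the capsule, and lineage tracing in mice has placed mesothelial cells among the sources of hepatic stellate cells and fibroblasts. Uroplakins are membrane proteins best known from the plaques of the bladder lining, and Upk1b and Upk3b are also widely used as markers of mesothelium. At this age the rest of the organ is a site of blood formation in which erythroid cells fill the space between hepatoblasts, sinusoids and macrophages.

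The E14.5 section held 20952143 gene transcripts over 477 genes, with a median of 167 per cell. Upk-positive cells held 82.9% of all Upk1b counts (1616 of 1949) and 81.1% of all Upk3b counts (6672 of 8224). Both genes were found in 817 of them (67.6%), Upk3b without Upk1b in 390, and Upk1b without Upk3b in 2. Their summed count ran from 3 to 35 with a median of 5. These values describe the choice and test nothing.

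The cut at 3 counts fell within a gradual range. The 249 cells with exactly 3 counts, just inside it, were 86.7% within 20 µm of the section edge and held 1.00 count of Krt19 and 0.502 of Lrp2 per cell. Just outside, the 356 cells with exactly 2 counts were 79.5% within 20 µm of the edge and held 0.798 count of Krt19 and 0.390 of Lrp2. So the rule left out cells much like those it took. At the other end, the 240 cells with 10 or more counts held 3.05 counts of Krt19 and 2.62 of Lrp2 per cell in a median area of 276 µm². Any uroplakin count at all was found in 0.327% of the 78997 cells deeper than 100 µm in the tissue, at a median depth of 166 transcripts per cell against 201 in Upk-positive cells, and 24 cells there reached 3 counts.

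Position was not used by the rule, and Upk-positive cells lay on the rim of the tissue. Their centres lay a median of 5 µm from the section edge, the grid step of the tissue outline, whereas all other cells lay a median of 163 µm from it. Within 20 µm of the edge were 87.3% of them (1055 cells; interval, 85.3 to 89.1), against 4.16% of other cells. That rim made up 7.89% of the 6.45 mm² of tissue. By depth, they formed 33.1% of the cells in the outer 10 µm (842 of 2546), 6.38% from 10 to 20 µm, 1.32% from 20 to 30 µm and 0.0105% deeper than 200 µm. Most of the fall with depth thus took place within the first few cell widths.

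Positions of transcripts were also read with the outlines of cells set aside. Of all decoded transcripts, 76.8% of Upk1b and 79.0% of Upk3b lay within 20 µm of the edge on either side, which again describes the genes of the rule. Krt19, a keratin of simple epithelia that the rule did not use, had 52.7% of its transcripts there. Lrp2, which encodes the endocytic receptor megalin, had 68.6%.

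**Figure D1:**
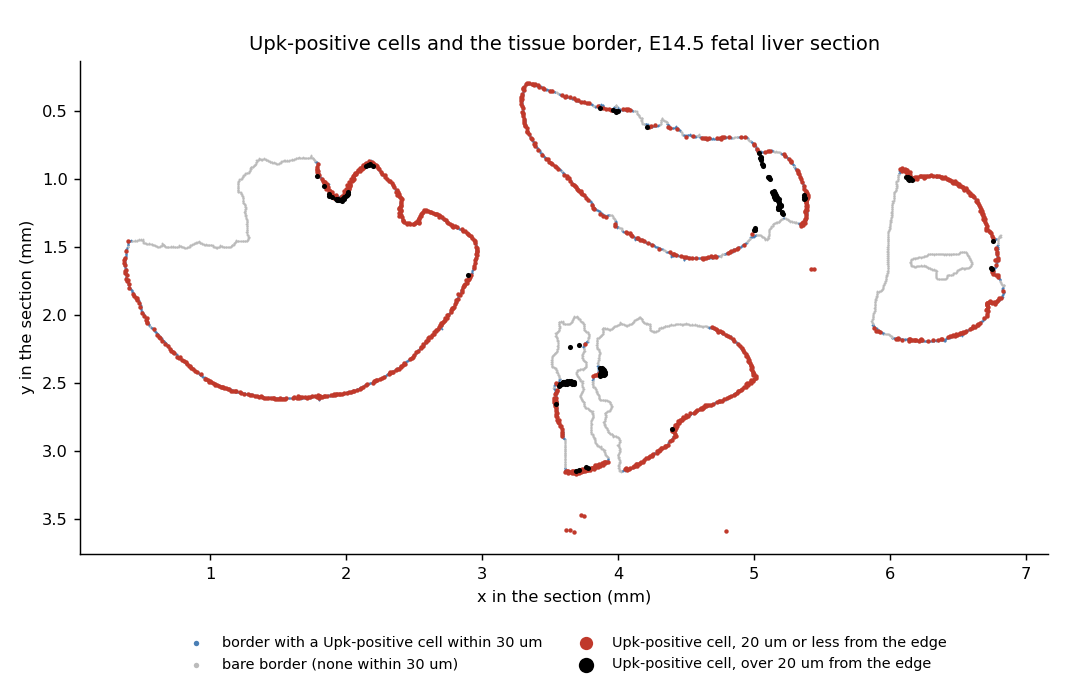
Map of the E14.5 fetal liver section, with x and y in mm. Red points are Upk-positive cells 20 µm or less from the edge, black points those farther in, and the border of the 5 pieces of tissue is blue where an Upk-positive cell lay within 30 µm and grey where none did. By eye, red points were dense along the curved outlines, long straight stretches were grey, and most black points lay in short lines inside 2 of the pieces.

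The section consisted of 5 pieces of tissue, of 3.002, 1.51, 0.842, 0.811 and 0.255 mm², numbered from 1 to 5 in that order, which held 1201 of the Upk-positive cells. All pieces had such cells: 442, 265, 197, 168 and 129. An Upk-positive cell lay within 30 µm of 62.2% of the border over all pieces. This cover was 73.8% in piece 1, 81.0% in piece 2, 50.8% in piece 3, 48.7% in piece 4 and 31.4% in piece 5. By eye in the map, most cover lay along the rounded outlines and little along long straight ones. The shape of the border was not measured. No label or method read here says which stretches are natural surfaces and which are cut faces, so these cannot be told apart.

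**Figure D2:**
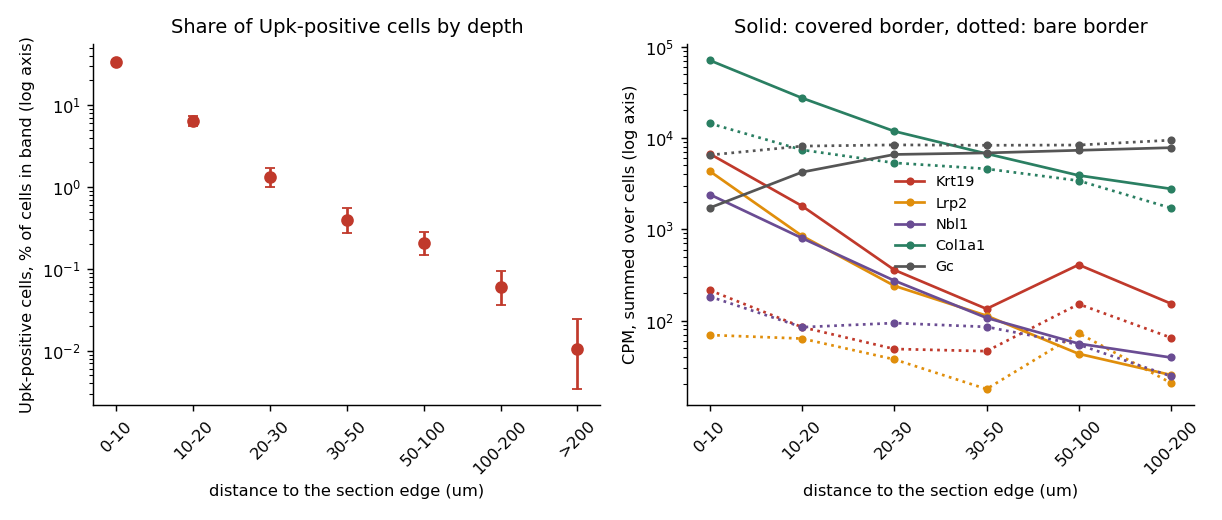
Left, share of cells that were Upk-positive in bands of distance from the section edge (log axis; bars, 95% exact interval). Right, level of 5 genes, in CPM, counts scaled to a total of 1000000 gene transcripts (log axis), summed over all cells of a band, Upk-positive cells included, beneath border with an Upk-positive cell within 30 µm (solid) and beneath bare border (dotted). In the outer 10 µm, Krt19 stood at 6685 CPM beneath covered and 214 CPM beneath bare border.

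Upk-positive cells lay near one another along the rim. The nearest other Upk-positive cell was a median of 11.4 µm away (interval, 11.1 to 11.6), and 94.0% had one within 20 µm. Linked by steps of at most 20 µm, they made 215 groups, of which 72 were single cells. The 52 groups of 5 or more cells held 895 of them, and the largest, of 106 cells, spanned 422 µm. In a network that joins each cell to the cells around it, 44.7% of the neighbours of Upk-positive cells were Upk-positive too, whereas their share of all cells was 1.03% and their share of cells in the outer 10 µm was 33.1%. The share on the rim is the nearer level to set it against, and joined pairs numbered 1638. Almost all (96.5%) had another Upk-positive cell as a neighbour in this network, as 2.05% of other cells did. Links ran up to 400 µm between cell centres, so a neighbour is the next cell in its direction and need not be in contact.

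Their drawn outlines were wide, as were those of other cells at the very edge. Cell area had a median of 187 µm² (180 to 198) against 47.8 µm² in all other cells, but nucleus area was similar, 28.8 against 26.6 µm². Since outlines were made by growing nuclei outward, a cell beside empty glass can be drawn larger, and the areas were therefore set side by side at the same depth. Edge cells with no Upk-positive neighbour in the network had a median of 69.4 µm² within 20 µm of the edge, but only 35.1% of them lay in the outer 10 µm, against 69.6% of all Upk-positive cells. In the outer 10 µm alone, both groups had a median distance of 5 µm, and the median area was 246 µm² (232 to 256) in 842 Upk-positive cells and 208 µm² (199.9 to 216) in 1064 of the other edge cells. Upk-positive cells held 201 transcripts at the median against 167, with quartiles of 151 and 264, which came to 112 transcripts per 100 µm² against 357 in all other cells and 250 in those edge cells. In the outer 10 µm the densities were 86.3 and 85.8, with intervals that overlap, so the difference in density was not seen at matched depth. Of their transcripts, 41.7% lay over the nucleus, as did 57.4% in other cells. The rule used raw counts, and median area rose with the uroplakin count. It was 64.8 µm² at 1 count, 122 µm² at 3 and 276 µm² at 10 or more. Area and transcripts per cell were therefore not free of the choice of cells.

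Nuclei were drawn out along the surface. The ratio of nucleus length to width had a median of 1.53 in Upk-positive cells, 1.20 in all other cells and 1.22 in edge cells with no Upk-positive neighbour. It was above 1.5 in 52.4% of Upk-positive cells, 14.9% of other cells and 20.1% of those edge cells. In the outer 10 µm the median ratio was 1.63 against 1.24, and 56.8% against 23.7% were above 1.5. Among nuclei of that shape within 20 µm of the edge, the long axis made a median angle of 9.26° with the border in Upk-positive cells (8.55 to 10.4) and 31.7° in the other edge cells (27.3 to 34.2). It lay within 30° of the border in 82.4% (467 of 567) and 49.0% (296 of 604). In the outer 10 µm alone the angles were 8.60° and 18.0°, with 87.2% and 61.4% within 30°, a smaller difference. This split was added after seeing the data. The shape of the nucleus does not depend on the grown outline, so elongation and alignment were seen in a measure apart from cell area. The other edge cells were not matched for kind of border. In the outer 10 µm, 854 cells lay beneath border with no Upk-positive cell within 30 µm. Kind of border and Upk status thus differed in part together in these comparisons.

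**Figure D3:**
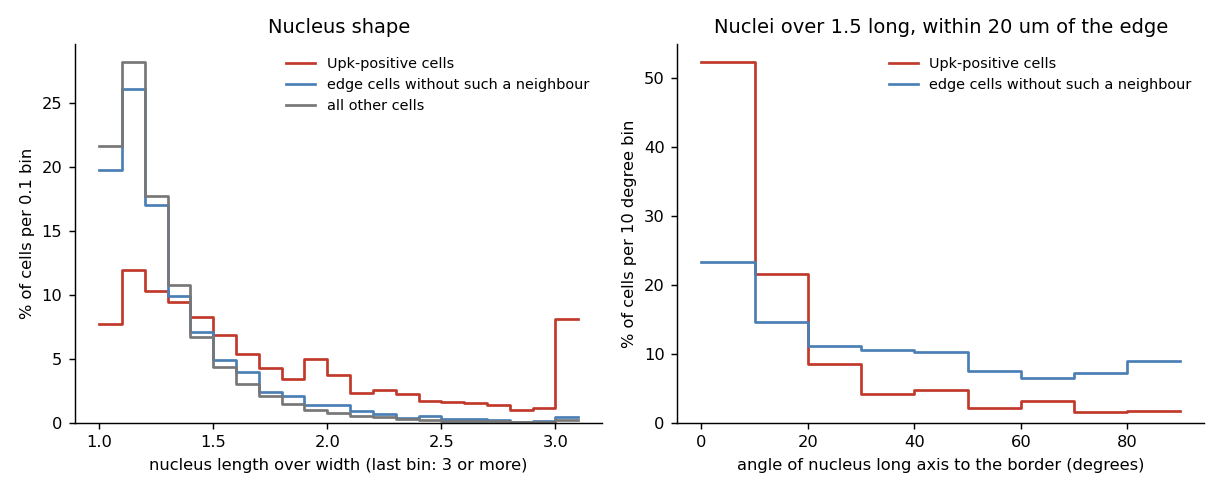
Left, nucleus length over width in Upk-positive cells, in cells within 20 µm of the edge with no Upk-positive neighbour, and in all other cells, as the share of cells per step of 0.1, with 3 or more in the last step. Right, angle between the long axis of elongated nuclei (ratio above 1.5) and the border, as the share per 10°. Upk-positive cells had more elongated nuclei and more of them parallel to the border (82.4% within 30°).

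For gene levels, counts were summed over cells and given as CPM, and 470 genes with at least 100 counts in the section were compared, the uroplakins of the rule left out. Against all other cells, 232 genes (49.4%) were at least 2-fold higher in Upk-positive cells and 75 (16%) at least 2-fold lower. The median gene was 0.96 higher on the log2 scale. This share of higher genes was large partly among genes of low count: with at least 1000 counts per gene, 102 of the 290 genes then compared were higher. Negative control probes, which have no target in the mouse, were 2.61-fold higher per gene transcript as well (27 counts against 813; interval, 1.71 to 3.83), so ratios up to about this size were also given by probes with no target. How much of each gene's ratio was such background was not tested. When each ratio was divided by that of the control probes, 76 genes were at least 2-fold higher and 169 at least 2-fold lower. This division treated genes of all count levels alike, although the control probes held only 27 counts in Upk-positive cells.

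The leading gene was Lrp2, at 5949 CPM against 36.3 CPM in all other cells, a ratio of 164 (150 to 179). It was found in 56.9% of Upk-positive cells and 0.573% of others. Krt19 stood at 8390 against 139 CPM, a ratio of 60.5 (57.2 to 64.0), and was found in 73.4% and 1.10% of cells. Podxl, which encodes the sialomucin podocalyxin of podocyte, vascular and mesothelial surfaces, stood at 22569 against 5019 CPM, a ratio of 4.50, and was found in 94.5% and 34.8%. Krt8, the other simple keratin on the panel, did not set these cells apart: 4998 against 5719 CPM, a ratio of 0.874, with 8130 CPM in cells past a hepatocyte gate described below. Of the 4 mesothelial markers listed besides Upk1b and Upk3b, 3 were therefore at least 2-fold higher and Krt8 was not, beside 49.4% of all genes. Wt1 and Msln, widely used mesothelial markers, were not on this panel.

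The label was checked against the epithelia that share these genes. Upk1a and Upk3a, uroplakins of the bladder lining, had 29 and 8 counts over all 1209 cells, with ratios of 2.06 and 4.59 whose intervals overlap that of the control probes. Krt13, a keratin of stratified and bladder epithelium, had 9 counts and a ratio of 3.87, so that all 3 urothelial genes outside the rule were at least 2-fold higher, at few counts. Epcam, the adhesion molecule of most epithelia and of bile ducts, was found in 7.86% of Upk-positive cells, with 441 against 107 CPM, a ratio of 4.12. Sox9, a transcription factor of the bile duct lineage, had a ratio of 1.93, and Cldn3 had 1 count. Of the 5 biliary genes 2 were at least 2-fold higher, Epcam and Krt19, the latter shared by the mesothelial and biliary lists, and 1 was lower. Among the 9 listed epithelial genes, 5 were at least 2-fold higher and 1 lower, near the 49.4% of all genes. By position, nucleus shape and the markers Lrp2, Krt19 and Podxl these cells can be called mesothelium-like, although the listed marker Krt8 was not higher. The ratio of Podxl, 4.50 on 5934 counts, was near that of Upk3a, 4.59 on 8 counts. Divided by the control probe ratio of 2.61, the ratio of Podxl fell below 2-fold, whereas those of Lrp2 and Krt19 stayed above it.

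**Figure D4:**
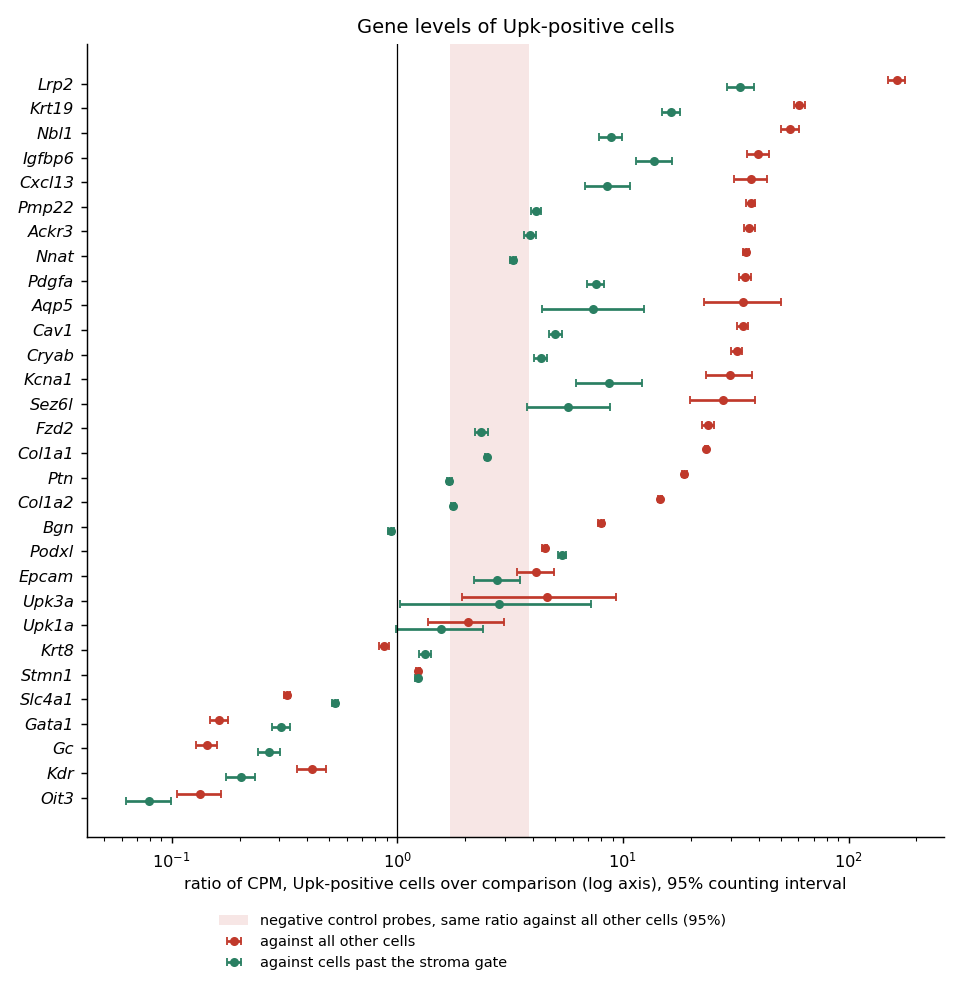
Ratio of CPM in Upk-positive cells over all other cells (red) and over other cells past the stroma gate (green) for genes named in the text (log axis; bars, 95% counting interval). The shaded band is the interval of the same ratio for negative control probes against all other cells, 1.71 to 3.83. Lrp2 and Krt19 lay far to the right in both comparisons, whereas Col1a2, Ptn and Bgn lay between 0.941 and 1.77 against stroma.

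Several genes of secreted regulators were among the leading ratios. Nbl1, a secreted antagonist of bone morphogenetic proteins, stood at 3039 against 55.2 CPM (ratio, 55.1), and Igfbp6, a binding protein of insulin-like growth factors, at 1742 against 43.8 CPM (39.8). Pdgfa, a ligand of the platelet-derived growth factor receptors, stood at 5074 against 146 CPM (34.7). The ratio of Ptn, which encodes the heparin-binding growth factor pleiotrophin, was 18.7, that of the secreted Wnt modulator Sfrp1 was 7.72 and that of Igfbp3 was 4.65, whereas Igfbp1, a product of hepatocytes, was lower at 0.227. Of the 16 listed growth and Wnt signal genes, 8 were at least 2-fold higher and 1 lower, a share near the 49.4% of all genes, with a median log2 ratio of 1.52 against 0.96. Ackr3, a scavenging receptor for the chemokine CXCL12, had a ratio of 36.3, and the B cell chemokine gene Cxcl13 one of 36.9 on 210 counts. Fzd2, a Wnt receptor, had a ratio of 23.8.

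Membrane and channel genes were also among the leading 15. Cav1, which encodes the coat protein of caveolae, stood at 6386 against 188 CPM (ratio, 34.0) and was found in 61.5% of Upk-positive cells against 2.18% of others. Pmp22, a membrane protein gene named for peripheral myelin, had a ratio of 36.8. Nnat, an imprinted gene for a small membrane proteolipid, was found in 95.9% of Upk-positive cells and 5.38% of others, with a ratio of 35.1. The small heat shock protein gene Cryab had a ratio of 31.9. The water channel gene Aqp5, the potassium channel gene Kcna1 and Sez6l had ratios of 34.2, 29.7 and 27.8 on only 40, 103 and 52 counts. Cldn2, a claudin of leaky tight junctions, had a ratio of 12.1 on 85 counts.

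Type I collagen genes were found in nearly every Upk-positive cell. Col1a1 was found in all 1209 (100%) and in 16.4% of other cells, at 79765 against 3410 CPM (ratio, 23.4), and Col1a2 had a ratio of 14.6. The proteoglycan gene Bgn had a ratio of 8.00. Of 16 fibrous matrix genes 12 were at least 2-fold higher and 1 lower, with a median log2 ratio of 2.88. Of 9 stellate genes 8 were at least 2-fold higher and none lower, with a median of 3.09. Of 6 smooth muscle genes 4 were higher, beside 49.4% of all genes. The sum of the 16 matrix genes came to 191615 CPM in Upk-positive cells, against 17959 in others. Their neighbours held these genes too, as given below, and with a section of this thickness the share of transcripts that came from a cell beneath was not tested.

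Most erythroid, hepatocyte and endothelial genes were at least 2-fold lower, beside 16% of all genes. Of 12 erythroid genes 10 were at least 2-fold lower and none higher, and their sum was 148439 against 441228 CPM. Slc4a1, the anion exchanger of red cells, had a ratio of 0.325, and the erythroid transcription factor gene Gata1 one of 0.162. Of 11 hepatocyte genes 9 were lower and none higher, with Gc, the vitamin D binding protein gene, at 0.143. Of 11 endothelial genes 7 were lower and 2 higher. Oit3, a gene of sinusoidal endothelium, had the lowest ratio among genes counted in both groups, 0.133. Other blood genes were mostly within 2-fold: 2 of 10 macrophage, 1 of 7 granulocyte and neither of the megakaryocyte genes were lower and none was higher, with C1qb at 1.41, Pf4 at 1.17 and Mpo at 0.659. Erythroid transcripts were nevertheless present: Hbb-bt, an adult beta globin gene, was counted in 95.04% of Upk-positive cells and 98.8% of others.

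Of 4 cell cycle genes, none was at least 2-fold higher and 1 was lower, beside 49.4% and 16% of all genes. Ube2c, which acts in the exit from mitosis, was at 3492 against 9208 CPM, a ratio of 0.379. Cenpf had a ratio of 0.980 and Stmn1 one of 1.23. The aldehyde dehydrogenase gene Aldh1b1 had a ratio of 0.339. Lists of organs other than the liver stood beside a background in which 49.4% of all genes were higher: 3 of 4 lung genes, 3 of 7 gut and pancreas genes, 4 of 6 kidney genes, 4 of 5 nervous genes, 6 of 10 skeletal muscle genes and all 8 surface keratinocyte genes were at least 2-fold higher. The skeletal muscle list had 2 lower genes as well, and its sum was lower in Upk-positive cells, 4549 against 7545 CPM.

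The closest comparison was with stroma. Outside the Upk-positive cells, 6613 cells passed a stroma gate of at least 3 counts of Colec11, Lhx2, Pdgfra and Pdgfrb together, genes of stellate cells and fibroblasts. Against them, 130 genes (27.7%) were at least 2-fold higher in Upk-positive cells and 71 (15.1%) lower, with the median gene at 0.38 and control probes at 2.06-fold. Lrp2 stood at a ratio of 33.1, Krt19 at 16.3, Igfbp6 at 13.7, Nbl1 at 8.81, Pdgfa at 7.57, Podxl at 5.37 and Cav1 at 5.02. Stellate genes served in part to choose the comparison cells. Among the 5 stellate genes outside the gate, none was at least 2-fold higher or lower, with ratios from 0.751 to 1.70. Of the 16 matrix genes 3 were higher and 2 lower, but their sum was 191615 against 116713 CPM, with Col1a1 at 2.49, Col1a2 at 1.77 and Bgn at 0.941. Of the 11 endothelial genes 8 were lower, Oit3 at 0.0792 and Kdr, a receptor for vascular endothelial growth factor, at 0.203. Cells past the stroma gate held 34923 CPM of these 11 genes, against 13057 in Upk-positive cells and 15510 in all other cells. The gate thus did not separate stroma from endothelium, and the low endothelial ratios depend on the comparison cells as well. Erythroid genes stood at 270570 CPM in the gated cells.

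Krt19 also had high ratios over other edge cells and over cells past a hepatocyte gate. Against the 3030 cells within 20 µm of the edge with no Upk-positive neighbour, which lay deeper at the median (15 against 5 µm), 140 genes (29.8%) were higher and 78 (16.6%) lower, with control probes at 2.97-fold (1.58 to 5.72). Lrp2 there had a ratio of 60.7, Krt19 of 31.2, Podxl of 4.53 and Col1a1 of 6.47, and Krt8 one of 0.941. The ratio of Podxl thus lay within the interval of the control probes in this comparison. That interval rested on 27 control counts in Upk-positive cells, where Podxl had 5934 counts. The gate of at least 10 counts of hepatocyte genes took 61010 cells, over whose sum erythroid genes stood at 401384 CPM and hepatocyte genes at 119970 CPM, so it did not separate hepatocytes from blood cells. Against them, 252 genes (53.6%) were higher and 76 (16.2%) lower, with control probes at 3.007-fold (1.96 to 4.44). Krt19 had a ratio of 120 against these cells and Krt8 one of 0.615.

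Each piece of tissue was also taken alone. The ratio of Lrp2 over other cells of the same piece was 196, 91.1, 84.4, 224 and 190 from piece 1 to piece 5, and that of Nbl1 ran from 31.7 to 80.0. Krt19 had ratios of 171, 18.9, 86.3, 131 and 136. Its low ratio in piece 2 went with a higher level in the other cells there, 414 CPM. Epcam showed the same, with 360 CPM in the other cells of piece 2 and a ratio of 0.981 there, but 11.4, 6.15, 21.9 and 17.9 in pieces 1, 3, 4 and 5. Podxl ranged from 3.37 to 5.12, and Krt8 from 0.747 to 1.05. The pieces shared 1 section and were no replicates.

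Not every Upk-positive cell lay on the rim of the drawn outline. The 65 that lay more than 50 µm from the edge were 34 in piece 2, 28 in piece 5 and 3 in piece 4, and they ran in lines inside the tissue in the map. The outline was closed with a disc of 25 µm and small empty parts were filled, so a narrow cleft would count as tissue. Whether these lines followed clefts was not tested. Their nearest Upk-positive cell was 7.33 µm away at the median. Cell area was 66.8 µm² against 207 µm² in the 1055 at the edge, whereas the nucleus ratio was close, 1.49 against 1.55. Their uroplakin sum had a median of 5, as at the edge.

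Krt19 and Podxl stood at like levels in inner and outer cells, whereas Lrp2 was lower at the edge. Of the genes compared, 72 (15.3%) were at least 2-fold higher at the edge and 38 (8.09%) lower, although 166 genes had no count in 1 of the groups. Krt19 was at 8388 CPM at the edge and 8643 inside, and Podxl at 22463 and 23256. Lrp2 was at 5541 CPM at the edge and 11851 inside, so that 1 of the 4 mesothelial markers was at least 2-fold lower at the edge and none higher. Within piece 2 it was 4216 at the edge against 5561 inside, with intervals that overlap, and within piece 5 it was 11274 (9657 to 13085) against 21228 (17134 to 26006). Stellate genes went both ways: 3 of 9 were higher at the edge and 1 lower, and their sum was 69768 CPM at the edge and 85806 inside. Within piece 2 the stellate sum was 65360 at the edge against 81712 inside. Within piece 5 it was 86608 against 89477, with intervals that overlap. Of the 16 matrix genes 1 was higher at the edge and 3 lower, and of the 6 smooth muscle genes none was higher and 4 were lower. Blood and hepatocyte genes were higher at the edge or not past 2-fold, with 5 of 7 granulocyte, both megakaryocyte, 3 of 10 macrophage, 4 of 12 erythroid and 4 of 11 hepatocyte genes higher and none lower. The erythroid sum was 155736 CPM at the edge and 86073 inside. Within pieces 2 and 5 it was 169872 against 106117 and 108830 against 61858. The hepatocyte sum was 29249 against 20226 CPM, but 30834 against 24405 in piece 2 and 15380 against 15293 in piece 5. Edge cells were pooled over all pieces, and levels differed by piece. Mpo, a granulocyte gene, was at 3499 CPM in Upk-positive cells of piece 2 and 223 CPM in those of piece 5. Lhx2, a LIM homeobox gene of stellate cells, was at 7327 CPM at the edge and 624 inside (7 counts; 251 to 1285). This held in both pieces that had inner cells in number: 2416 against 772 CPM in piece 2, and 9710 against 457 in piece 5. Ptn was higher inside, 52571 against 22729 CPM, and within pieces 2 and 5 it was 51591 against 31837 and 52956 against 27892. Tagln, a smooth muscle gene, was at 6059 against 1834 CPM, and within these pieces at 5561 against 3145 and 6619 against 2281. Lhx2 and Tagln were singled out after their values were seen.

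Of the 2380 other cells that were neighbours of Upk-positive cells in the network, 41.6% passed the stroma gate (39.6 to 43.6). These neighbours included cells just below the cut of the rule. Of the 356 cells with 2 uroplakin counts, 82.9% had an Upk-positive neighbour, as did 42.8% of the 1173 with 1 count. How much of the shares given here came from such cells was not tested. With links of up to 30 µm alone, 2276 cells were neighbours and 43.3% passed. This compares with 4.94% of cells without an Upk-positive neighbour at any length of link and 13.4% of edge cells without one. Among the Upk-positive cells themselves 63.8% passed. At least 10 counts of fibrous matrix genes were held by 63.0% of neighbours, 5.22% of cells without an Upk-positive neighbour and 18.7% of edge cells without one. Cells with at least 10 counts of hepatocyte genes made up 29.2% of neighbours and 53.0% of the cells that were not neighbours. Cells with as many endothelial counts made up 3.32% and 7.04%, but at a gate of 3 endothelial counts the shares were 27.0% and 23.2%. Those with as many macrophage counts made up 5.08% and 2.57%. Neighbours thus passed the stroma gate more often and the hepatocyte gate less often, whereas the direction for endothelial counts depended on the gate.

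Neighbours differed from cells that were not neighbours in 241 genes (51.3%) that were at least 2-fold higher and 18 (3.83%) that were lower, with control probes at 2.03-fold. Of 9 stellate genes 8 were higher, and of 16 matrix genes 13 were. Neighbours lay a median of 15 µm from the edge and the other cells 166 µm. Nearness to Upk-positive cells and depth therefore differed together in this comparison, and the neighbours again included cells just below the cut of the rule.

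Border with and without Upk-positive cells was compared within bands of depth, a split that was chosen after the map was seen. Border here included the rim of any empty part of at least 0.01 mm² inside the tissue. What share of the bare border such rims made up was not tested. Within 20 µm of the edge, 2557 cells other than Upk-positive ones lay beneath covered border and 1953 beneath bare border. There, 173 genes (36.8%) were at least 2-fold higher beneath covered border and 19 (4.04%) lower, with the median gene at 0.76 on the log2 scale and control probes at 1.31-fold (0.647 to 2.76). Depth was not fully matched in this band, since 24.1% of the cells beneath covered border and 43.7% of those beneath bare border lay in its outer 10 µm. Median cell area was 55.6 µm² beneath covered and 88.2 µm² beneath bare border, and median depth was 157 and 166 transcripts per cell. Uroplakin counts of 1 or 2 were allowed in these cells, and Krt19 stood at 10.9 times its bare level, 1567 against 144 CPM.

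The summed stellate genes were 2.06-fold higher beneath covered border, and 2.25, 1.13, 3.45, 2.57 and 2.53-fold in pieces 1 to 5. Itga8, an integrin gene of mesenchymal cells, was 5.80-fold higher, from 1.79 to 12.8 over the pieces, and Lhx2 4.40-fold, from 1.87 to 6.88. The summed endothelial genes stood at 0.494 of their bare level, and below it in each piece, from 0.415 to 0.844. Oit3 stood at 0.183 and Kdr at 0.244. With the band split at 10 µm, stellate genes were at 2.25 in the outer 10 µm and 2.16 from 10 to 20 µm, Lhx2 at 4.45 and 4.77, endothelial genes at 0.451 and 0.550, and Oit3 at 0.129 and 0.218. In piece 2 the split left stellate genes at 1.01 from 10 to 20 µm and endothelial genes at 1.03 in the outer 10 µm. At 20 to 50 µm the differences were smaller: 71 genes (15.1%) were higher and 3 (0.638%) lower, with stellate genes at 1.32, endothelial genes at 1.07 and Oit3 at 1.05. Granulocyte genes were 1.95-fold higher beneath covered border over all pieces, but at 0.496 and 0.468 in pieces 4 and 5. Summed macrophage genes had a ratio of 0.953 and erythroid genes one of 0.758. Itga8, Lhx2, Kdr and Oit3 were singled out here after their values were seen.

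**Figure D5:**
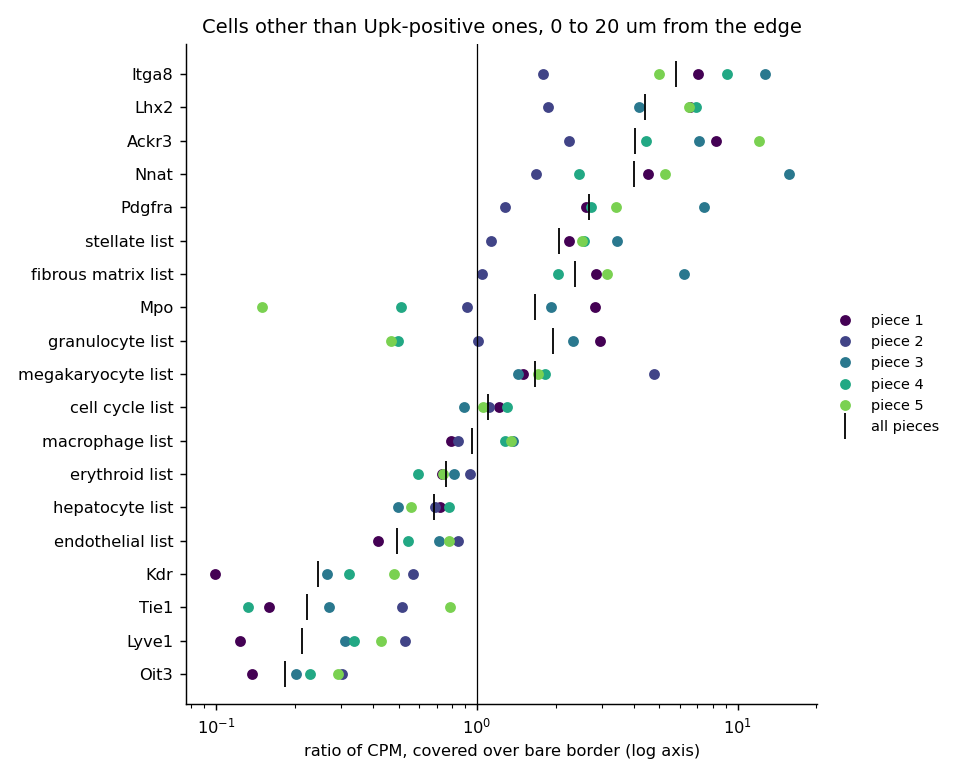
Ratio of CPM beneath covered over bare border for genes and gene lists in cells other than Upk-positive ones, 0 to 20 µm from the edge (log axis). Points are the 5 pieces and vertical bars all pieces together. The stellate and matrix lists lay to the right of 1 in every piece (the former at 1.13 in piece 2), and the endothelial list to the left, whereas granulocyte genes lay on either side.

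The same rule also found cells in both spleens of this series. Bone marrow, which has no mesothelium, gave 0 of 52594 cells at P8 (exact upper limit, 0.00701%) and 0 of 143810 at 89 weeks (0.00257%). Median depth was 109 transcripts per cell at P8 and 60 at 89 weeks, against 167 in the E14.5 liver. The 89-week section was measured on another panel, of 5050 genes, so its cells were not screened at like depth. The untreated spleen gave 185 of 108338 cells (0.171%; 0.147 to 0.197), of which 55.7% lay within 20 µm of the edge against 1.76% of other cells, with a median area of 252 against 35.6 µm². The PHZ spleen gave 213 of 94582 cells (0.225%; 0.196 to 0.258), all of them within 20 µm of the edge against 4.06% of others. Both spleens were measured on the panel of the E14.5 liver. Their values stand side by side with those of the liver, since age and organ differ together.

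Krt19 and Lrp2 had high ratios in the spleen as well, with values over all other cells of 557 and 137 in the untreated and 456 and 170 in the PHZ spleen. Podxl did not follow them: its ratio was 6.12 in the untreated spleen but 0.128 (0.0874 to 0.181) in the PHZ spleen, at 691 CPM against 5404 CPM in other cells. Igfbp6 had ratios of 207 and 150, against 39.8 in the liver. Krt8, at 0.874 in the liver, had ratios of 94.2 and 289, and C3, the central complement gene, 11.8 and 11.5 where the liver cells had 0.220. Anxa8, a membrane-binding annexin gene, had 81.2 and 228 against 7.33. The ratios of Cxcl13 were 0.319 and 0.0532 and those of Ackr3 0.755 and 1.12. For Cxcl13 in the untreated spleen the level in Upk-positive cells was 1372 CPM, against 799 CPM in the liver, but the other spleen cells held 4305 CPM. In the PHZ spleen its level in Upk-positive cells was 130 CPM on 6 counts, below that in the liver, and the other cells held 2437 CPM. Nnat had 14.4 and 5.09, and Ptn 4.97 and 0.686, below their liver ratios. A ratio depends on the other cells of the organ as well as on these: the level of Krt8 was 4998 CPM in the liver cells and 2896 and 14403 in the spleen cells. In the untreated spleen Car3, a carbonic anhydrase gene abundant in fat cells, had a ratio of 38.9 at 55324 CPM, and what part of it lay in fat beside the capsule was not tested. Anxa8, C3 and Car3 were named for the spleen after their values were seen.

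The E13.5 liver, a smaller section of 5285 cells on a panel of 5050 genes and with another outlining of cells, gave 7 such cells (0.132%; 0.0533 to 0.273). Of these, 6 lay within 20 µm of the edge, but so did 28.2% of the other cells of this small section. The 7 cells held a median of 743 transcripts, against 190 over all cells of the section. Wt1, the mesothelial transcription factor gene absent from the smaller panel, had 9 counts in the 7 cells, a ratio of 31.5, and Msln had 2 counts, both named here as known markers. Lrp2 had 5 counts, a ratio of 48.2 (14.4 to 129), Podxl 34 counts, a ratio of 10.7, and Col1a1 66 counts, a ratio of 12.1. Panel, outlining and age differ together between the livers, so their effects on the share of Upk-positive cells cannot be told apart.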

How the data were processed

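Xenium data of 6 mouse sections were used, chiefly the E14.5 fetal liver. The authors deposited whole-number counts of transcripts per gene and cell, without normalization, cell and nucleus outlines and positions in µm, and a transcript table with a quality score for each deposited transcript. The study's methods name Space Ranger for this step, with Giotto for later steps, whereas the run description names the instrument's own software. At a quality score of at least 20, 97.2% of 21563021 gene transcripts lay in a cell, and counts rebuilt from them differed from the deposited ones in 0 entries.

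From these, counts were summed over cells, divided by their total (CPM) and set as ratios with conditional exact binomial intervals. Genes with at least 100 counts in the section were compared, and a gene counted as higher or lower at 2-fold. The tissue outline was made from cell centres on a grid of 5 µm, closed with a disc of 25 µm, with empty parts of at least 0.01 mm² taken as outside. Neighbours came from a Delaunay network with edges of up to 400 µm, as in the study's methods. Shares have Clopper-Pearson intervals and medians have order-statistic intervals. Python 3.11.15 with numpy 2.4.6, scipy 1.17.1, pandas 2.3.3 and matplotlib 3.10.9 was used, and the calculations were tested on simulated data. Doublets were not called, since cells were imaged, and overlap of cells in depth was not resolved. All deposited cells were kept. Sections shared at most 6 cell identifiers.

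Genes were named by rule: all genes of the mesothelial, urothelial, epithelial and biliary lists, the 15 highest and 10 lowest ratios, and the 4 most counted genes of each other list of 24. Some genes that the rule names are not reported here. Others are marked as chosen after their values were seen. The Upk-positive cells, lists and comparisons were chosen with earlier results of these data known. Alternatives are given in the closing section.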

Additional observations from a re-analysis of the deposited data

How the results depend on the processing

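No paired analysis was possible because each condition had 1 section and no comparison had a test. The number of Upk-positive cells was 752 with at least 5 counts and 521 with at least 3 transcripts over the nucleus. Their share within 20 µm of the edge was 85.0% by nuclear transcripts and 84.6% with a closing disc of 40 µm. The nearest other Upk-positive cell lay 10.8 µm away with at least 2 counts and 13.5 µm with at least 5. Steps of 30 µm gave 106 groups. Of cells next to Upk-positive ones in the network, 25.1% passed a stroma gate of 5 counts and 7.82% one of 10. Genes at least 2-fold higher numbered 102 with at least 1000 counts per gene, of 290 genes then compared. The settings of the next sentence were added after seeing the data. Counts per cell area gave 67 genes higher and 191 lower, and division by the control probe ratio gave 76 and 169. These moved the median gene from 0.96 to -0.62 and -0.43 on the log2 scale. Podxl stayed higher in Upk-positive cells under each of these settings, but by less than 2-fold.

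Under these same settings, log2 ratios changed sign for Actn3 (-0.38 per area, -0.19 divided), Cldn4 (-0.40, -0.20), Cubn (-0.33, -0.14), Eng (-0.39, -0.19), Muc1 (-0.45, -0.26), Prom2 (-0.33, -0.13), Rbp7 (-0.31, -0.11), Serpinb5 (-0.49, -0.30), Tubb3 (-0.29, -0.094) and Upk1a (-0.54, -0.34), and per area also for Cldn11 (-0.067) and Try10 (-0.025). In single pieces, also added after seeing the data, the sign changed for 1, 5, 4, 1 and 0 of 106 named genes from piece 1 to piece 5, Epcam in piece 2 among them. Other settings over the whole section left the median distance at 5 µm, and with single pieces included they left the higher genes between 187 and 267 and the lower between 60 and 94. Depth limits genes with few counts in 1209 cells, and 1 section limits all comparisons to this organ.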
